A study of Mus musculus with 36 samples.

Results

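The change in colon gene expression from day 15 of a colitis-associated cancer protocol to the tumor stage was compared between wild-type mice (WT) and mice labelled IL-17RC KO (KO), to ask whether loss of this receptor subunit altered that change. For each gene the quantity was the log2 difference tumor minus day 15 in KO, minus the same difference in WT, called the interaction here. A negative interaction means that the gene went up less, or down more, in KO. The arrays were taken by their titles, 4 labelled WT AOM-DSS_D15, 4 labelled KO AOM-DSS_D15, 6 labelled WT tumor and 6 labelled KO tumor, which are 20 of the 36 arrays of the series. Mice of both genotypes were 6 to 8 weeks old and all 20 samples are labelled AOM+DSS, that is the carcinogen azoxymethane (AOM) and then 3% dextran sulfate sodium (DSS) in the water. The full course was 3 cycles, each of 5 days of DSS with 14 days of plain water after it. The tumor arrays are labelled day 63, after that course, while day 15 falls within its first cycle if days are counted from its start, which the labels do not state. Total RNA of colon was hybridized to Affymetrix mouse arrays, and each of 17097 genes is represented by its brightest probe set, as an intensity without unit. The labels do not say how tumors were separated from the colon wall, which cells lack the gene, or whether arrays of a group are separate animals, so the spread behind the p-values may be technical in part.

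IL-17RC pairs with IL-17RA to form the receptor for IL-17A and IL-17F. In the gut this receptor acts mainly in epithelial and stromal cells, where it switches on chemokines that draw neutrophils, antimicrobial proteins and repair genes. DSS strips the colon lining, which is then rebuilt by dividing crypt cells, and AOM-DSS tumors usually carry active Wnt signalling, the pathway that keeps crypt stem cells dividing. Interferons are antiviral and T cell cytokines that induce their own large set of genes in the same tissue.

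Il17rc checked the genotype labels. Its intensity was 301, 257, 341 and 109 in WT at day 15 and 13, 9, 12 and 9 in KO, and WT tumors ran from 76 over a median of 104.5 to 223 while KO tumors lay between 8 and 10. The groups did not overlap at either stage, and by limma KO was lower by a log2 difference of -4.33 ± 0.31 (SE) at day 15 (adjusted p = 2.78e-07) and -3.54 ± 0.26 in tumors (adjusted p = 2.7e-07). Genes of colon epithelium were present on every array, with Vil1, a brush border protein, at 882 or above and Cdh17, an intestinal cadherin, at 1190 or above. The colon identity genes Cdx1 and Cdx2 were dimmer, and ran from 138 to 489 and from 27 to 522. Some arrays stood apart. Replicate 4 of both genotypes at day 15 had the highest S100a8, a neutrophil protein (5585 in WT and 6239 in KO, against 192 to 1356 in the other day 15 arrays). KO tumor replicates 1 and 2 had squamous keratin Krt5 at 96 and 436, where the other 18 arrays had 16 to 46. KO tumor replicate 4 had the Y-linked Eif2s3y at 139 against 7 to 9 elsewhere. WT tumor replicate 6 and KO tumor replicate 1 had Myh11, of smooth muscle, at 1419 and 1667, where the other tumors had 117 to 563. Some values moved by over 1.5 times without 1 of these arrays, and values without them are given beside many of the results. The mean log2 level of 17 smooth muscle genes ran from 7.37 to 8.26 at day 15 and from 5.64 to 8.25 in tumors. In whole tissue, fewer cells of a type and less RNA per cell cannot be told apart.

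No gene passed the test for the interaction, that is 0 of 17097 genes by limma with Benjamini-Hochberg adjustment (0% of those tested; smallest adjusted p = 0.994). At an unadjusted p under 0.05 there were 786 genes (4.6%), of which 488 were negative (2.85%) and 298 positive (1.74%). By chance alone about 855 genes would reach this threshold, so the total is no more than chance gives. The median 95% interval reached 0.42 log2 units to either side of the estimate, and the intervals of inflammatory genes such as Ccl4 were several units wide. Each genotype changed broadly on its own. In WT 2849 genes passed from day 15 to tumor (16.7%), with 1825 higher in tumors (10.7%) and 1024 lower (5.99%). In KO 1690 passed (9.88%), with 1046 higher (6.12%) and 644 lower (3.77%). A gene that passed in 1 genotype only is not shown to differ between them, since the interaction is the test of that difference. The counts depended on single arrays, from 1771 without WT day 15 replicate 1 in WT and 854 without KO day 15 replicate 1 in KO.

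**Figure D1:**
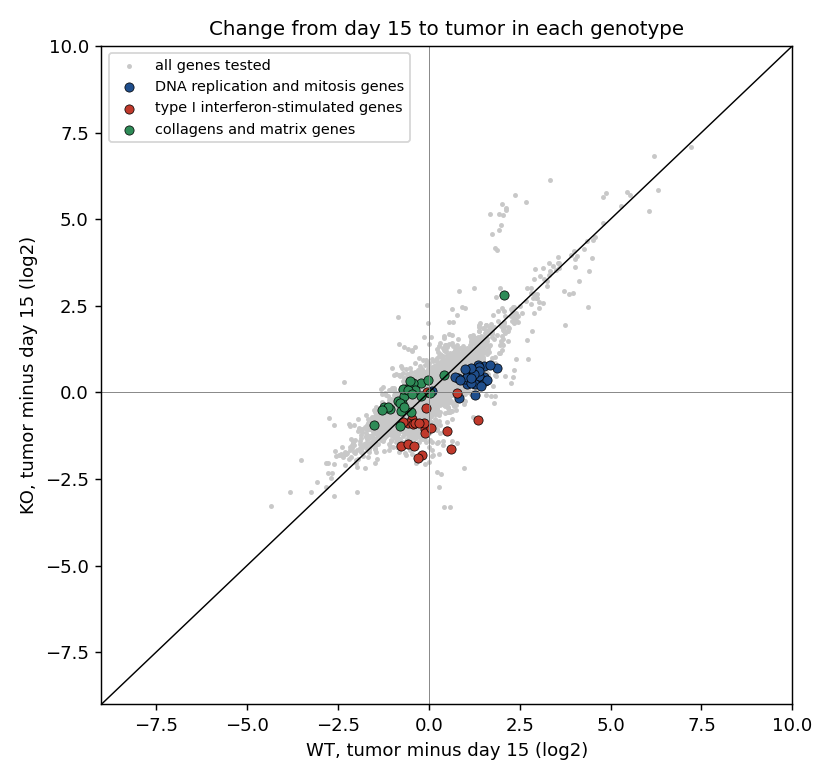
Each point is 1 of 17097 genes, with its log2 change from day 15 to tumor in WT on the horizontal axis and in KO on the vertical axis, and the line marks equal changes. DNA replication and mitosis genes (blue) lie right of the line with a median of 1.27 in WT and 0.44 in KO, 20 of 21 type I interferon-stimulated genes (red) lie below it, and collagen and matrix genes (green) lie mostly above it; the interaction passed the adjusted threshold for 0 genes.

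Genes of DNA replication and mitosis had negative interactions throughout. All 31 measured members were below 0, against 48.2% of all genes, with a median of -0.78 against 0.01 over all genes. The median was -0.45 without WT day 15 replicate 1, the array with the lowest level of this list (5.63). Of them 13 had an unadjusted p under 0.05, against 2.85% of all genes in this direction, and 0 passed after adjustment. The members were measured on the same arrays and can vary together, so their counts do not weigh as independent tests. The list was also chosen with earlier results of these data known. Both limits hold for the other lists too. In WT 29 of the 31 rose from day 15 to tumor, against 10.7% of all genes, with a median change of 1.27. In KO 2 of 31 rose, against 6.12% of all genes, the helicase subunit Mcm7 and the nucleotide-making enzyme subunit Rrm2, with a median change of 0.44. This KO count is near the background. It ran from 0 without KO tumor replicates 1 and 2 to 10 with the replicate number as a block at day 15 only. All 6 tumors lay above all 4 day 15 arrays for 30 of 31 in WT, against 7.8% of all genes, and for 3 of 31 in KO, against 6.86%. At day 15 the members were higher in KO by a median of 0.92, and all 4 KO arrays lay above all 4 WT arrays for 13 of 31, against 2.4% of all genes. In tumors the median difference between KO and WT was 0.09, and 0 of 31 members had non-overlapping groups, against 0.0468% of all genes with KO above and 0.123% with KO below.

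The promoters of a helicase, a spindle motor and an interferon-induced gene are printed because they had among the smallest interaction p of their lists. The sequences are the 250 bases before the listed start of transcription, 5′ to 3′, from RefSeq on GRCm38.p6. Capitals mark matches on either strand, in the first promoter to TTTNNCGC, of E2F type, and CCAAT, in the second to CCAAT and TTTGAA, of the CHR type found before mitosis genes, and in the last to GAAA, any 2 bases and GAAA, of the interferon response type.
Mcm6, chr1:128359706-128359955, reverse strand: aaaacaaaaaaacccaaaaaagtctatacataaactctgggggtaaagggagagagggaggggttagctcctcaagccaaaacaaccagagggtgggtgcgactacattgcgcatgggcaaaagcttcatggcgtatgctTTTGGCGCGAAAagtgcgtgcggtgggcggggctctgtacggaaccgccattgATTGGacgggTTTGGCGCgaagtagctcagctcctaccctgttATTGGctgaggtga
Kif11, chr19:37376132-37376381, forward strand: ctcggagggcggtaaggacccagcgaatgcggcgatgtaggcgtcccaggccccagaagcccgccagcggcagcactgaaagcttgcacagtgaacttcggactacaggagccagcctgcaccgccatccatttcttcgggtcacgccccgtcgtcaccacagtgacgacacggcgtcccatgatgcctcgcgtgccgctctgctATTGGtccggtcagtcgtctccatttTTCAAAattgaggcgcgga
Oas3, chr5:120777660-120777909, reverse strand: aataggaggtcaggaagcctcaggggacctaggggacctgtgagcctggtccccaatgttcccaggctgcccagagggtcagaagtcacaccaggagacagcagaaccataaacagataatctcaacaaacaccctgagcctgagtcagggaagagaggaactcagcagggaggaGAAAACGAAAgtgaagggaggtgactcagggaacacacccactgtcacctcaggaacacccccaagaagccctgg
Of the 31 replication and mitosis genes 24 had a promoter in the RefSeq table. CCAAT was present before 20 of these 24 (83.3%), against 39.6% of the 13605 measured genes with a promoter. TTTNNCGC was present before 6 of 24 (25%), against 6.9%, and TTTGAA before 7 of 24 (29.2%), against 14%. Of the 21 measured type I interferon-stimulated genes 14 had a promoter, and the interferon response motif was present before 5 of these (35.7%), against 3.09% of all. A match describes the letters only. The Kif11 promoter was also searched for TTTNNCGC, without a match. The promoter of Fen1, the gene with the smallest negative interaction p, had 0 matches to TTTNNCGC or CCAAT and is not printed.

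Kif11, the motor that separates spindle poles, had intensities of 11, 15, 18 and 25 in WT at day 15 and of 55, 72, 37 and 45 in KO. Tumors ran from 29 over a median of 37.5 to 66 in WT and from 30 over 39.5 to 69 in KO. All KO arrays were above all WT arrays at day 15 (KO minus WT 1.50 ± 0.27, adjusted p = 0.0476), while the tumors of both genotypes overlapped. Kif11 rose in WT by 1.28 ± 0.25 (adjusted p = 0.0017), its change in KO was -0.07 ± 0.25 (adjusted p = 0.884), and its interaction was -1.35 ± 0.35 (95% interval -2.09 to -0.61, unadjusted p = 0.0011, adjusted p = 0.994). With the mean of all probe sets of Kif11 the interaction was -0.77. Mcm6, a subunit of the replicative helicase, had 154, 317, 249 and 303 in WT at day 15 and 553, 627, 388 and 394 in KO, again without overlap. Its tumors ran from 484 over 668.5 to 770 in WT and from 541 over 626 to 803 in KO. The interaction of Mcm6 was -0.93 ± 0.26, with a WT change of 1.37 ± 0.19 (adjusted p = 0.000109) and a KO change of 0.44 ± 0.19 (adjusted p = 0.134). Uhrf1, which carries DNA methylation through replication, had 27, 79, 70 and 66 in WT and 160, 223, 115 and 116 in KO at day 15, and an interaction of -1.25 ± 0.43.

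The genes with the smallest interaction p in the negative direction held further replication and centriole genes that the list did not contain. They were ranked on the same 20 arrays, so they are no independent support for the list. Fen1, the nuclease that trims Okazaki fragments, had 48, 54, 44 and 94 in WT at day 15 and 157, 173, 101 and 144 in KO, and its tumors ran from 121 over 143 to 168 in WT and from 115 over 150 to 214 in KO. The WT day 15 arrays were the lowest 4 of the 20. Its interaction of -1.09 ± 0.25 had the smallest unadjusted p in this direction (0.000361; adjusted p = 0.994), and Fen1 was higher in KO at day 15 by 1.17 ± 0.20 (adjusted p = 0.029). Pola1, the catalytic subunit of the polymerase that primes replication, had 26, 43, 26 and 52 in WT at day 15 and 90, 131, 76 and 81 in KO, and an interaction of -1.27 ± 0.31. Sass6, a centriole assembly protein, had an interaction with a 95% interval of -1.53 to -0.48, and Ada, the enzyme that breaks down adenosine, one of -0.79 ± 0.21. Ada was also higher in KO at day 15 (0.90 ± 0.16, adjusted p = 0.0476), with 75, 75, 65 and 94 in WT and 156, 182, 125 and 157 in KO. Tcof1, needed for ribosomal RNA synthesis, had an interaction of -0.93 ± 0.25 and Sec11c, of the signal peptidase, one of -0.45 ± 0.12. The other 3 of these 10 genes, 4933432I03Rik, Klhl14 and E230016M11Rik, had a mean intensity below 16, near background, where whole-number steps set the size.

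**Figure D2:**
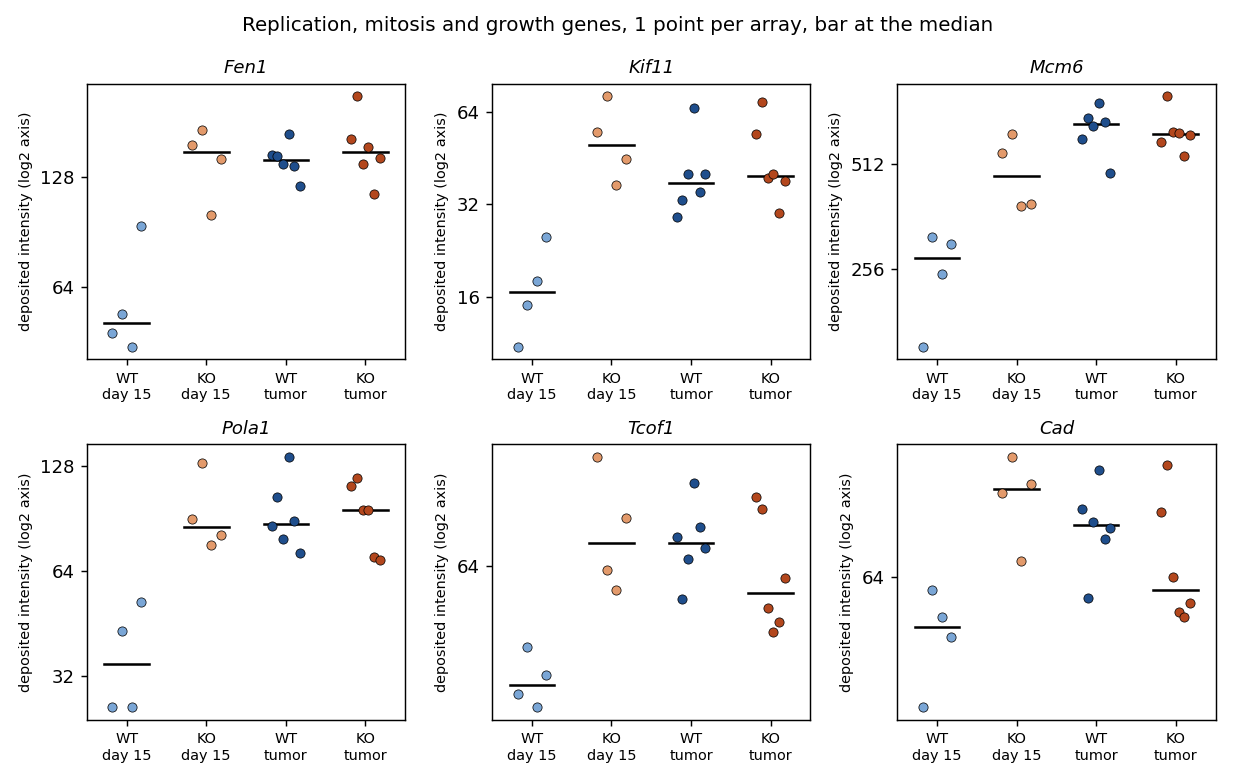
Deposited intensity on a log2 axis of 6 replication, mitosis and growth genes, 1 point per array and a bar at each group's median, for 4 WT and 4 KO day 15 arrays and 6 WT and 6 KO tumor arrays. The WT day 15 arrays are the lowest group in each panel, as for Kif11 with 11 to 25 against 37 to 72 in KO at day 15, and the tumor groups overlap.

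Growth genes had smaller interactions of the same sign. Of 19 measured Myc and ribosome biogenesis genes 18 had a negative interaction, with a median of -0.30 that was -0.18 without WT day 15 replicate 1. Of these 15 rose in WT, against 10.7% of all genes, and 8 in KO, against 6.12%. Cad, which starts pyrimidine synthesis, had an interaction of -0.83 ± 0.26, Fbl, a nucleolar RNA methylase, one of -0.52 ± 0.20 and Ddx21, a nucleolar helicase, one of -0.46 ± 0.21. Fbl rose in both genotypes, by 1.02 ± 0.14 in WT (adjusted p = 0.00014) and 0.49 ± 0.14 in KO (adjusted p = 0.0349). Of 19 heat shock and unfolded protein response genes 16 were below 0, with a median of -0.33 that was -0.18 without day 15 replicate 4 of both genotypes. Of these 5 rose in WT, against 10.7% of all genes, and 0 in KO, against 6.12%. The KO count is near the background. Hsp90aa1, a cytosolic chaperone, rose in WT by 0.91 ± 0.16 (adjusted p = 0.000715), with 0.33 ± 0.16 in KO (adjusted p = 0.183) and an interaction of -0.58 ± 0.22. Pdia4 and Sdf2l1, which fold proteins in the endoplasmic reticulum, had interactions of -0.59 ± 0.22 and -0.62 ± 0.28.

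Interferon-stimulated genes also had negative interactions, with the KO day 15 arrays as the high group. Of 21 type I interferon-stimulated genes 20 were below 0, with a median of -0.81. At an unadjusted p under 0.05 were 5, against 2.85% of all genes in this direction. At day 15 all KO arrays were above all WT arrays for 17 of 21, against 2.4% of all genes, and the median difference was 1.24. In tumors the median difference was 0.41, with 0 of 21 without overlap, against 0.0468% of all genes with KO above and 0.123% with KO below. The mean level of the list was 6.54, 6.62, 6.50 and 5.74 in WT and 7.76, 7.83, 7.60 and 7.50 in KO at day 15. KO tumors spread from 5.49 to 8.15, with replicate 1 highest, and WT tumors from 5.37 to 6.81. Of 28 genes of interferon-gamma response and antigen presentation all were below 0, with a median of -0.84 (-0.54 without WT day 15 replicate 4). At an unadjusted p under 0.05 were 3 of these, against 2.85% of all genes in this direction. At day 15 all KO arrays were above all WT arrays for 8 of 28, against 2.4% of all genes. Of the type I list 2 fell in KO, against 3.77% of all genes, and 2 rose in WT, where 10.7% of all genes did, so this WT count is no more than the background. Of the interferon-gamma list 2 fell in KO, against 3.77% of all genes, and 0 passed in WT, against 16.7%.

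Oas3, an antiviral oligoadenylate synthetase, had 16, 14, 14 and 18 in WT at day 15 and 50, 47, 39 and 51 in KO. WT tumors lay between 12 and 19 and KO tumors between 13 and 44, where replicate 1 was the one above 19. Oas3 was higher in KO at day 15 (1.48 ± 0.23, adjusted p = 0.0224), fell in KO from day 15 to tumor by 1.17 on the log2 scale (SE 0.21, adjusted p = 0.00228) and changed by -0.10 ± 0.21 in WT (adjusted p = 0.818). The WT values of Oas3 lay near background, where differences are compressed. Its interaction was -1.07 ± 0.30 with all arrays, and -0.71 with a pseudocount of 16 instead of 1. Without KO tumor replicates 1 and 2 it was -1.35, with an adjusted p of 0.0263. Replicate 1 is the KO tumor with the highest Oas3, so leaving it out removes a high value of the gene tested, and this call is no independent support. Usp18, which damps interferon signalling, had 24, 24, 29 and 19 in WT at day 15 and 147, 133, 67 and 122 in KO, and ran from 39 over 57 to 98 in WT tumors and from 23 over 51 to 271 in KO tumors. Its interaction was -2.15 ± 0.64, with a rise in WT of 1.35 ± 0.46 (adjusted p = 0.0482). Ddx58, the RNA sensor RIG-I, had an interaction of -0.81 ± 0.24 and rose in WT (0.79 ± 0.17, adjusted p = 0.00367). Ubd, a ubiquitin-like modifier induced by interferon-gamma, had 290, 261, 167 and 45 in WT at day 15 and 1113, 1211, 555 and 527 in KO, and an interaction of -2.24 ± 0.93. The guanylate-binding protein Gbp8 and the immunity GTPase Irgm2 had interactions of -1.10 ± 0.47 and -0.95 ± 0.45. KO tumor replicate 1 was the highest of the KO tumors for Oas3, Usp18, Ddx58, Ubd, Gbp8 and Irgm2.

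Of 38 alternative settings, 2 gave calls for the interaction, and both left out arrays that stood apart. Without KO tumor replicates 1 and 2, the arrays with squamous keratins, 2 genes passed, Oas3 and, with the same limit, since replicate 1 was its highest KO tumor too, Cmpk2, a nucleotide kinase induced by interferon (interaction -2.19, adjusted p = 0.0493). Without those 2, KO tumor replicate 4, WT tumor replicate 6 and replicate 4 of both genotypes at day 15, 11 genes passed, 6 of them negative. The negative ones were Oas3, Cmpk2, Apol9a, Oas2, Usp18 and Fen1, of which 4 belong to the type I list, and the positive ones were Klk1b5, Cela1, Gpt, Plet1 and Slc30a1. The KO tumors then left, replicates 3, 5 and 6, all carried the pancreatic transcripts described further on. These arrays were chosen after their values were seen, and both sets hold the KO tumor with the highest interferon-stimulated genes, so none of these calls is independent support. The list medians were then -1.17 for replication and mitosis and -1.35 for type I interferon.

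**Figure D3:**
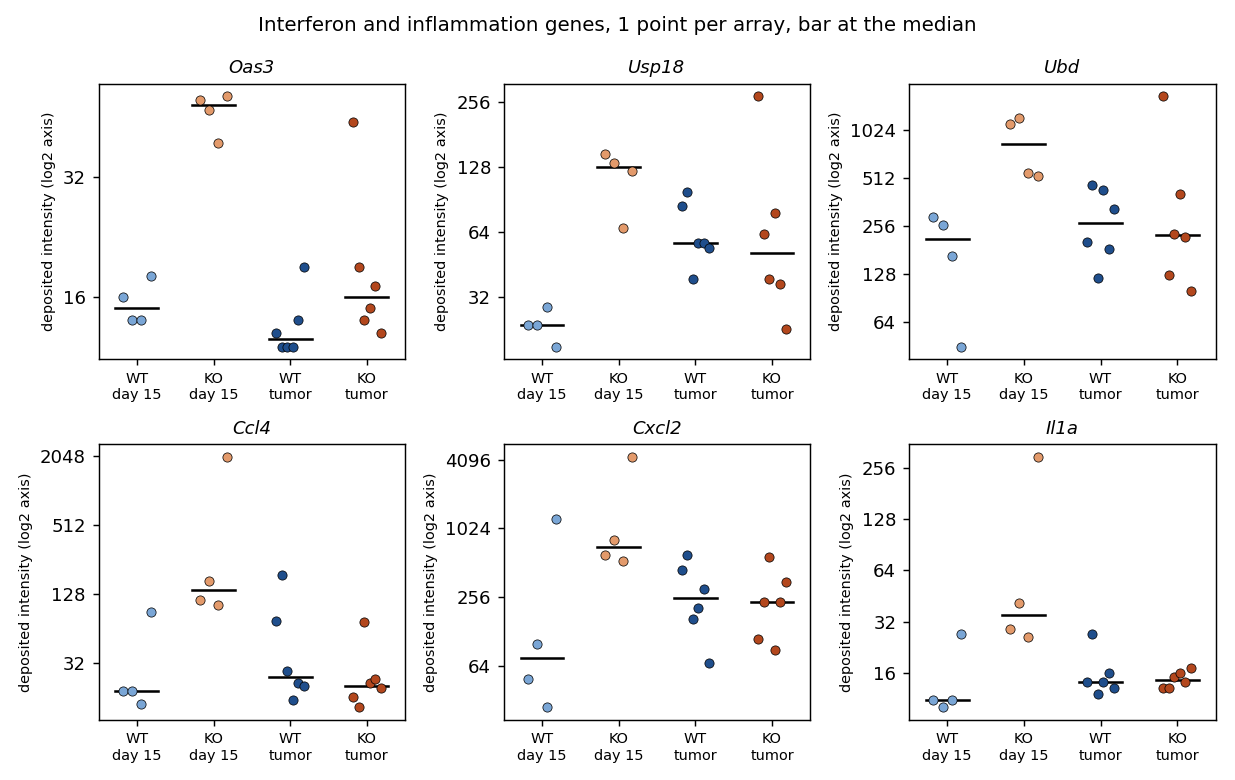
Deposited intensity on a log2 axis of 3 interferon and 3 inflammation genes, 1 point per array and a bar at each group's median, for 4 WT and 4 KO day 15 arrays and 6 WT and 6 KO tumor arrays. KO day 15 arrays of Oas3 lie at 39 to 51 and WT at 14 to 18; KO tumor replicate 1 is high for Oas3, Usp18 and Ubd, and replicate 4 of each genotype at day 15 is high for Ccl4, Cxcl2 and Il1a.

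The most negative interactions by size were those of inflammatory genes, with wide errors. Ccl4, a chemokine for macrophages and T cells, had 18, 18, 14 and 88 in WT at day 15 and 112, 165, 103 and 2017 in KO. Its tumors ran from 15 over 24 to 188 in WT and from 13 over 20 to 73 in KO. Ccl4 fell in KO by 3.30 on the log2 scale (SE 0.79, adjusted p = 0.013), changed by 0.58 ± 0.79 in WT, and had an interaction of -3.88 ± 1.12 (95% interval -6.22 to -1.54), which was -2.88 without KO day 15 replicate 4. With a pseudocount of 16 the Ccl4 interaction was -3.12, and WT values of 14 to 18 lie near background. Acod1, which makes the antimicrobial metabolite itaconate, followed with -3.75 ± 1.13, and Hcar2, a receptor for butyrate and niacin, had -2.53 ± 0.75. Both fell in KO (adjusted p = 0.0132 and 0.0102) and were named for the size of their interaction after it was seen, as was Ifit2 of the type I list (-2.26 ± 0.84). The macrophage chemokine Ccl3 had -3.00 ± 1.10 and also fell in KO (adjusted p = 0.0325), with an interaction of -1.90 without KO day 15 replicate 4. Of 18 CC and CXC chemokines, however, 9 were below 0 and 9 above, up to Ppbp at 3.01 ± 1.63, a platelet chemokine that was at 763 and 1887 in KO tumor replicates 1 and 2 and at 7 to 153 in the other arrays. Without those 2 arrays its interaction was 1.13.

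Cxcl2, a neutrophil chemokine induced by IL-17, had 49, 101, 28 and 1242 in WT at day 15 and 599, 808, 530 and 4325 in KO, and an interaction of -3.16 ± 1.21. Within each genotype replicate 4 was far above the others. Of 27 IL-17-induced genes 17 were below 0, with a median of -0.19, which turned to 0.13 without KO day 15 replicate 4. Reg3g, an antimicrobial lectin, rose in both genotypes, by 4.39 ± 0.64 in WT (adjusted p = 0.000175) and 2.48 ± 0.64 in KO (adjusted p = 0.0187). Of 17 neutrophil genes 16 were below 0, with a median of -0.64. In either genotype 0 of them passed, against 16.7% of all genes in WT and 9.88% in KO. Leaving out WT day 15 replicate 4 moved the neutrophil median to -1.93, leaving out replicate 3 of that group to -0.20 and leaving out KO day 15 replicate 4 to -0.22. Clec4e, a receptor of myeloid cells, had -2.71 ± 1.10, the growth factor receptor Csf3r -1.16 ± 0.68 and the formyl peptide receptor Fpr2 -1.67 ± 1.14. Without KO day 15 replicate 4 the values were -1.82 for Clec4e, -0.40 for Csf3r and -0.77 for Fpr2, and without WT day 15 replicate 4 Fpr2 was at -2.55.

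Of 17 IL-1 family genes 13 were below 0, with a median of -0.33 that was -0.06 without KO day 15 replicate 4, and 5 had an unadjusted p under 0.05, against 2.85% of all genes in this direction. Il1a, an alarm cytokine, had 11, 10, 11 and 27 in WT at day 15 and 29, 41, 26 and 299 in KO, and 12 to 27 in all tumors. It fell in KO by 1.77 on the log2 scale (SE 0.47, adjusted p = 0.0206), and its interaction was -2.07 ± 0.66, or -1.25 without KO day 15 replicate 4. With a pseudocount of 16 the Il1a interaction was -1.41, and WT values of 10 and 11 lie near background. Il18bp, which neutralizes IL-18, also fell in KO (by 1.31, SE 0.38, adjusted p = 0.0357; interaction -1.19 ± 0.54), while the values were -1.03 ± 0.44 for the receptor antagonist Il1rn (-0.51 without KO day 15 replicate 4) and -2.04 ± 0.95 for Il1b. All 8 plasma cell genes were below 0, with a median of -0.94 that was -0.39 without KO tumor replicates 1 and 2. In either genotype 0 of these 8 passed, against 16.7% of all genes in WT and 9.88% in KO. Jchain, which joins secreted antibodies, had 1555, 2179, 927 and 2307 in WT at day 15 and 6008, 4959, 1797 and 3634 in KO, with overlap, and an interaction of -1.31 ± 0.59. Tnfrsf17, a survival receptor of plasma cells, had -0.95 ± 0.45 and Ighm, the IgM heavy chain, -1.83 ± 1.20. Without KO tumor replicates 1 and 2 Jchain was at -0.865 and Ighm at -0.996.

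Receptors of the IL-17 family lay on both sides of 0. The interaction of Il17rc was 0.79 ± 0.41 (1.19 without WT day 15 replicate 4), and its KO arrays lay near background, so this value follows its fall in WT (by 1.01 on the log2 scale, SE 0.29, adjusted p = 0.0194). Il17re, the receptor subunit for IL-17C, had 135, 106, 180 and 86 in WT at day 15 and 86, 73, 67 and 48 in KO, and 46 to 82 in all tumors. It fell in WT by 0.95 (SE 0.23, adjusted p = 0.00742), with -0.07 ± 0.23 in KO, and its interaction was 0.88 ± 0.32. Il17rb, the subunit for IL-25, had an interaction of 0.35 ± 0.17. The 10 receptor and adaptor genes ranged from -0.42 to 0.88, with 5 on either side of 0. The 10 measured type 17 cytokines and regulators ranged from -2.04, for Il1b, to 0.32. Il17a itself was at 9 to 20 on all 20 arrays, and Il23a, a subunit of IL-23, rose in both genotypes (1.04 in WT and 0.96 in KO).

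Most Wnt targets and Paneth-like genes, and 9 of 17 stem cell genes, rose in each genotype, where 10.7% of all genes rose in WT and 6.12% in KO. Of 25 Wnt targets 20 rose in WT and 19 in KO, and the median change over all 25 was 3.02 and 2.57. Their interaction had a median of -0.14, with 14 of 25 below 0, which ran from -0.41 without WT tumor replicate 6 to -0.01 without WT tumor replicate 3. Axin2, a feedback inhibitor of Wnt signalling, had 13, 13, 24 and 21 in WT and 32, 34, 36 and 24 in KO at day 15, and ran from 49 over 312 to 458 in WT tumors and from 102 over 241 to 342 in KO tumors. It rose by 3.73 ± 0.46 in WT (adjusted p = 3.89e-05) and 2.93 ± 0.46 in KO (adjusted p = 0.000648), and the 95% interval of the interaction of -0.80 went from -2.15 to 0.56. Without WT tumor replicate 6, the lowest tumor, it was -1.24. Ascl2, a stem cell transcription factor, had an interaction of -1.01 ± 0.67 and Ccnd1, cyclin D1, of -0.62 ± 0.29, or -0.39 without WT day 15 replicate 4. Of the 17 stem cell genes 15 had a negative interaction, and the median was -0.32, or -0.21 without WT day 15 replicate 2. At an unadjusted p under 0.05 were 0 of the 17, against 4.6% of all genes. Of 9 Paneth-like and lipase genes 7 rose in WT and 8 in KO, with median changes of 5.46 and 5.24 over all 9.

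**Figure D4:**
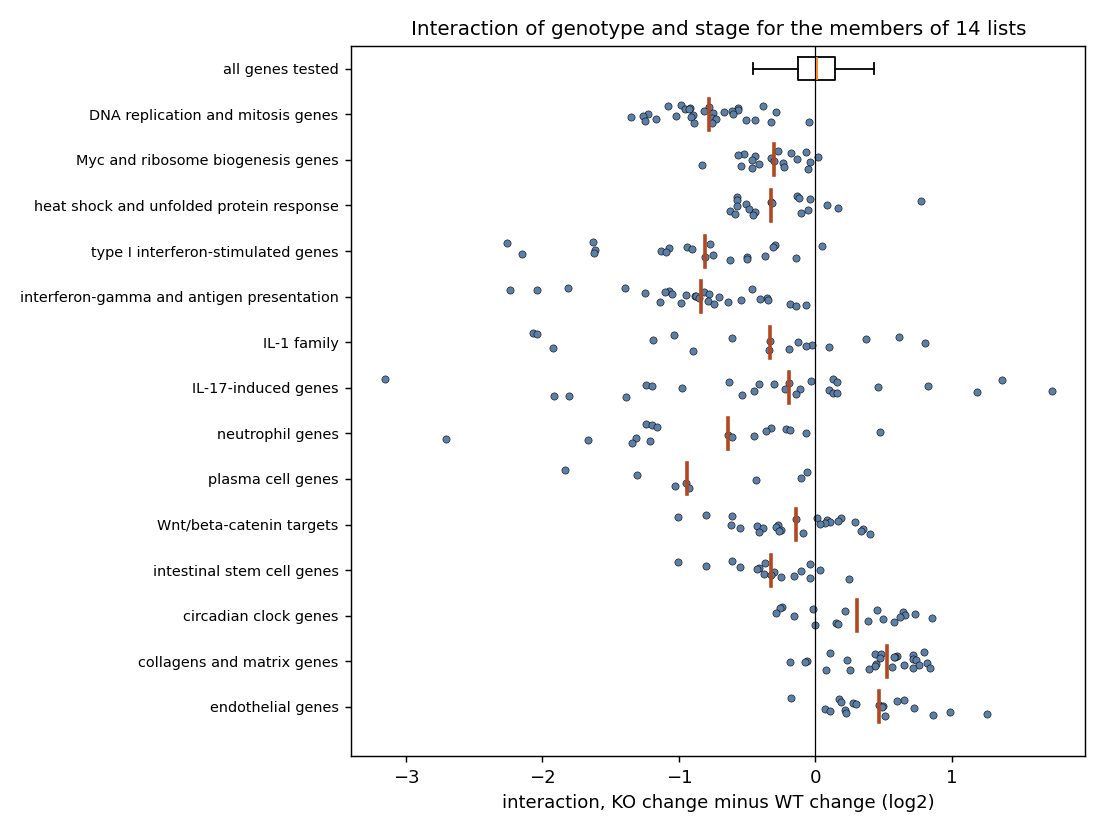
The interaction, KO change minus WT change on the log2 scale, of the measured members of 14 gene lists, 1 point per gene with a bar at the median, below a box of all 17097 genes with quartiles and whiskers at the 5th and 95th percentile. All 31 replication and mitosis genes lie left of 0 (median -0.78), while 23 of 26 collagen and matrix genes and 18 of 19 endothelial genes lie right of it.

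Positive interactions were seen in most stromal and clock genes listed, and also in several epithelial lists. Above 0 were 22 of 28 xenobiotic-metabolizing enzyme genes, 18 of 25 absorptive colonocyte genes and 15 of 18 enteroendocrine genes, against 51.8% of all genes. Of these lists 1, 0 and 0 members had an unadjusted p under 0.05, against 4.6% of all genes. Above 0 were only 6 of 14 tuft cell genes and 4 of 9 Paneth-like and lipase genes. Of 26 collagen and matrix genes 23 were above 0, with a median of 0.52, and 0 had an unadjusted p under 0.05, against 4.6% of all genes. The median was 0.90 without KO day 15 replicate 4 and 0.07 without WT day 15 replicate 4, the array with the highest level of this list (9.63, against 6.97 to 8.99 on the others). Thbs2, a matrix protein of fibroblasts, rose in both, by 2.08 ± 0.39 in WT (adjusted p = 0.00134) and 2.80 ± 0.39 in KO (adjusted p = 0.000254), and had an interaction of 0.72 ± 0.56, while Sparc, a matrix glycoprotein, had one of 0.65 ± 0.59. Without WT day 15 replicate 4 these were 0.26 and 0.23. Of 19 endothelial genes 18 were above 0, with a median of 0.47 that was 0.85 and 0.09 without the same arrays. Here too 0 had an unadjusted p under 0.05, against 4.6% of all genes. Vcam1, an adhesion molecule for leukocytes, had 0.86 ± 0.51, the vessel sialomucin Emcn 0.99 ± 0.64, and Sele, another leukocyte adhesion molecule, 0.22 ± 0.12 near background. Without WT day 15 replicate 4 Emcn was at 0.47 and Sele at 0.12. Of 18 circadian clock genes 9 fell in WT, against 5.99% of all genes, and 3 in KO, against 3.77%. Of the 18, 12 had a positive interaction, and the median was 0.30, or 0.19 without WT day 15 replicate 1. Tef, an output factor of the clock, had 326, 180, 298 and 271 in WT at day 15 and 186, 210, 291 and 135 in KO, and 44 to 143 in all tumors. It fell by 1.96 (SE 0.28, adjusted p = 0.000137) in WT and by 1.10 (SE 0.28, adjusted p = 0.0162) in KO, with an interaction of 0.86 ± 0.39. Nr1d2 and Cry2, 2 repressors of the clock, had 0.66 ± 0.26 and 0.73 ± 0.33, and Cry2 was at 0.47 without WT day 15 replicate 1. The labels give no hour of sampling. The 22 squamous epithelium genes had a median of 0.56, which was -0.07 without KO tumor replicates 1 and 2.

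Of the 10 genes with the smallest positive p, 5 had a mean intensity below 16, namely Nepn, 9430083A17Rik, Drd4, 6330415B21Rik and Icam4. The brightest was Cd151, a tetraspanin of epithelial adhesion, with 1778, 1560, 1588 and 1871 in WT at day 15 and 1271, 1173, 1294 and 1509 in KO. All 4 KO arrays lay below all 4 WT arrays at day 15, as they did for 1.09% of all genes, and tumors lay between 1640 and 1980 in both genotypes. Cd151 rose in KO by 0.48 ± 0.08 (adjusted p = 0.000629), changed by 0.07 ± 0.08 in WT and had an interaction of 0.42 ± 0.11. Rhbdf1, an inactive rhomboid that acts on growth factor release, had 245, 143, 158 and 194 in WT and 119, 91, 104 and 119 in KO at day 15, rose in KO (0.68 ± 0.15, adjusted p = 0.00666) and had an interaction of 0.69 ± 0.21. Hyi, Map1a and Lmbr1 had interactions of 0.76 ± 0.22, 0.63 ± 0.19 and 0.51 ± 0.16.

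By size, the largest positive interactions belonged to genes of the exocrine pancreas, named after their values were seen. Cpb1, a carboxypeptidase, was at 3.45 ± 2.60, the amylase Amy2a5 at 3.32 ± 2.71, the trypsinogen Prss2 at 3.21 ± 2.40, the elastase Cela2a at 3.19 ± 2.57 and Reg1 at 2.83 ± 2.34, each with an unadjusted p of 0.197 or above. Without KO tumor replicates 1 and 2 the value for Cpb1 was 6.10. These genes were high on some arrays and near background on others. Cpb1 was at 6060, 1345, 6207 and 2930 in KO tumor replicates 3, 4, 5 and 6 and at 14 and 12 in replicates 1 and 2. In WT tumors it was at 1333 and 4069 in replicates 2 and 6 and at 14 to 34 in the others. At day 15 it was at 130 in WT replicate 1 and at 12 to 26 on the other 7 arrays. All 6 of Cpb1, Amy2a5, Prss2, Cela2a, Cpa1 and Ctrb1 were above 100 on 4 of 6 KO tumor arrays and 2 of 6 WT tumor arrays. Probe sets of these enzyme families can bind more than 1 member, and the part of these transcripts in other results was not tested.

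**Figure D5:**
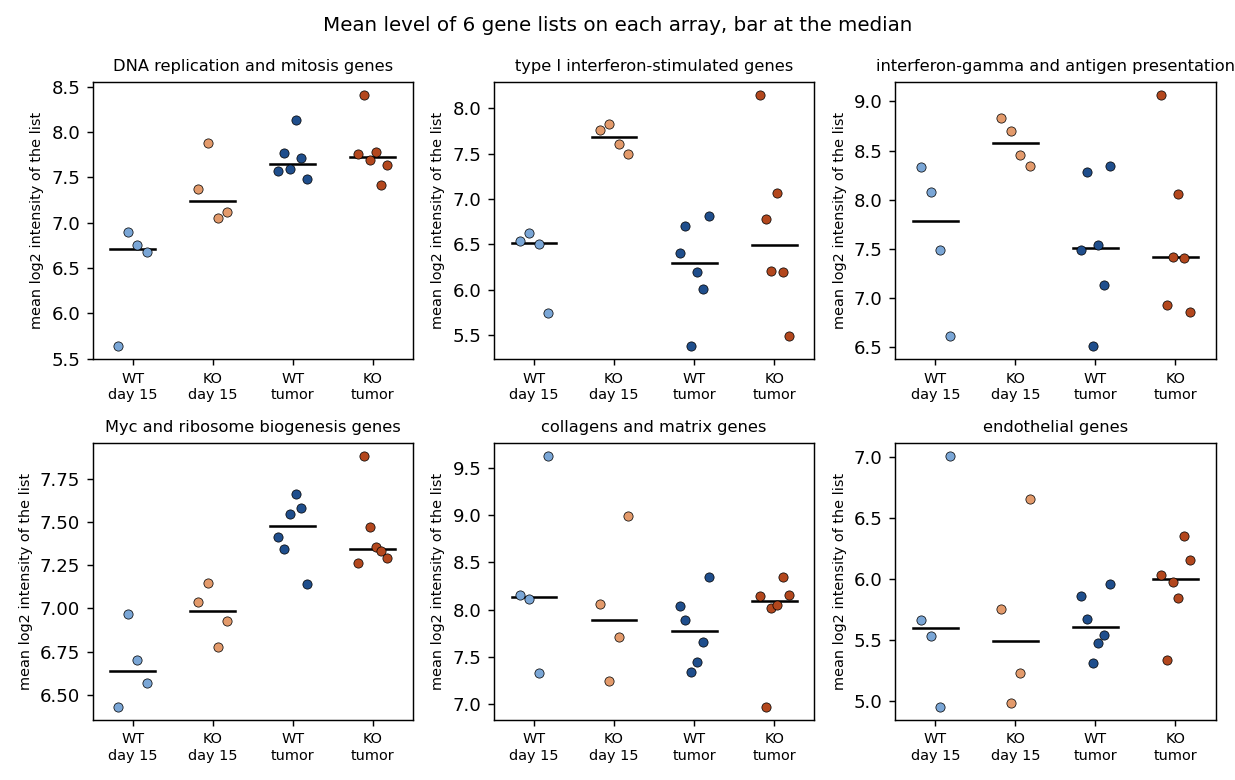
Mean log2 intensity of 6 gene lists on each array, 1 point per array and a bar at each group's median, for 4 WT and 4 KO day 15 arrays and 6 WT and 6 KO tumor arrays. Replication and mitosis genes run from 5.63 to 6.89 in WT and from 7.06 to 7.88 in KO at day 15 and overlap in tumors, and the day 15 levels of collagen and endothelial genes are highest on replicate 4.

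The genotypes were also compared within each stage, on arrays that the interaction uses too. At day 15, 10 genes differed between KO and WT (0.0585% of 17097), 7 higher in KO (0.0409%) and 3 lower (0.0175%), and 1525 had an unadjusted p under 0.05 (8.92%). With the replicate number as a block at day 15, where equally numbered arrays of the genotypes varied together, 36 genes passed. Besides Fen1, Ada, Oas3, Kif11 and Il17rc these were named after their values were seen. Gzma, a protease of cytotoxic T cells, had 16, 15, 11 and 21 in WT and 74, 84, 34 and 54 in KO (1.82 ± 0.33, adjusted p = 0.0476), and an interaction of -1.16 ± 0.43. Its WT values lay near background, and with a pseudocount of 16 the interaction was -0.76. Pop4, an RNase P subunit, was higher in KO by 1.66 ± 0.24 (adjusted p = 0.0124) and Zfp939, a zinc finger gene, by 0.74 ± 0.14 (adjusted p = 0.0476). Erdr1, a gene at the end of the sex chromosomes, was lower in KO (-3.25 ± 0.53, adjusted p = 0.0255), with 521 to 871 in WT and 43 to 152 in KO. The neutrophil antigen Cd177 was lower in KO at both stages, with 389 to 1112 in WT and 151 to 316 in KO at day 15, and an interaction of 0.14 ± 0.44 that ran from -0.06 to 0.47 over single left-out arrays. In tumors 2.29% of genes had an unadjusted p under 0.05 and 4 passed (0.0234%), all lower in KO, Ceacam12, Il17rc, Cd177 and Bcat2. Over both stages 12 genes passed, and 5 of them lay on chromosome 7 (41.7%), against 7.71% of all genes. Whether position on a chromosome, and not function, joins such genes was not tested. Ceacam12, of a cell adhesion family, rose in both genotypes, by 2.83 ± 0.32 in WT (adjusted p = 1.74e-05) and 1.76 ± 0.32 in KO (adjusted p = 0.00235), and Bcat2, a branched-chain amino acid transaminase, had 20 to 50 in WT tumors and 10 to 17 in KO tumors. Over single left-out arrays the day 15 count ran from 1, without WT replicate 1, to 21, without WT replicate 4, and the tumor count from 1, without WT tumor replicate 1, to 8.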

How the data were processed

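Total RNA of colon was measured on Affymetrix mouse arrays, 1 per sample. The values the authors deposited are intensities of 45037 probe sets, and how background and scale were set is not given in the sources used here. On the 20 arrays used they ran from 4 to 14185, with array medians of 14 to 16, and 36.2% of genes had a mean intensity below 16. Arrays give no read depth, so their number limits the precision. GEO's platform annotation gave 28898 probe sets 1 symbol, 551 several and 15588 none; probe sets with 1 symbol were kept, and each of 17097 genes was represented by the one with the highest mean over all 36 arrays.

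The deposited intensities were taken as log2 of the value plus 1, quantile-normalized over the 20 arrays, and fitted with limma 3.58.1 in R 4.3.3 (4 group means, intensity trend, Benjamini-Hochberg adjustment over all genes, threshold 0.05). The errors given after ± are the SE of the fit, and all p-values are two-sided. The untreated and day 7 arrays were not used in the fit. The script was tested on simulated data.

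The members and gene lists were chosen with earlier results of these data known. Genes were named by rule as the 10 with the smallest interaction p in each direction, up to 3 of each list described with the smallest p, IL-17 pathway members and array checks; some genes the rule gives are left out. Genes that differed at 1 stage, those with the largest interactions by size, the pancreatic genes and those called without some arrays were named after their values were seen. Further values of single list members serve as illustration.

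The labels do not say that replicate numbers pair samples. Deviations of equally numbered arrays from their group means correlated at 0.174 to 0.8 between the genotypes at day 15 (4 of 4 pairs above 0.1) and at -0.461 to 0.0857 in tumors (0 of 6), so the block is reported for day 15. Promoters came from RefSeq on GRCm38.p6 and were searched on both strands.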

Additional observations from a re-analysis of the deposited data

Results flagged for a closer look

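In 364 groups of 91 named genes and checks, 40 groups held an array whose gap to the nearest other array was large for the group's range. Chance marks about 1 in 20 such groups if values are continuous and normally spread. Here values are whole numbers, so a single step can mark a group, and genes can vary together. The count therefore cannot be read against that rate. All values are deposited intensities, each with the range of the other arrays of its group.

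WT day 15 replicate 4 stood apart for Klhl14 at 7 (others 6), Ccl4 at 88 (14 to 18) and Il1a at 27 (10 to 11). It also did so for Il17rb at 17 (18 to 19), Apol9a at 11 (25 to 30) and Cela1 at 641 (1450 to 1739). KO day 15 replicate 4 stood apart for Ccl4 at 2017 (103 to 165), Ccl3 at 2027 (73 to 119) and Il1rn at 2254 (500 to 596). It also did so for Clec4e at 1574 (115 to 156), S100a8 at 6239 (1043 to 1356) and Fpr2 at 2142 (170 to 181). WT tumor replicate 6 stood apart for Oas3 at 19 (12 to 14), Il17rc at 223 (76 to 115) and Myh11 at 1419 (271 to 435). It also did so for Apol9a at 71 (21 to 32) and Gpt at 60 (27 to 36). KO tumor replicate 2 stood apart for Ddx21 at 266 (154 to 176), Jchain at 835 (2892 to 5215) and Sparc at 958 (2171 to 2657). It also did so for Erdr1 at 58 (234 to 460). WT day 15 replicate 1 stood apart for Amy2a5 at 502 (6 to 14), Cela2a at 140 (9 to 14) and Reg1 at 36 (9 to 10). KO tumor replicate 3 stood apart for Klhl14 at 6 (others 7) and Ccl4 at 73 (13 to 23). WT tumor replicate 3 stood apart for Cd151 at 1980 (1710 to 1757) and Eif2s3y at 7 (others 8). WT tumor replicate 2 stood apart for 9430083A17Rik at 15 (10 to 11) and Il1a at 27 (12 to 16). KO tumor replicate 1 stood apart for Ddx58 at 270 (132 to 149) and Il18bp at 198 (31 to 44). KO tumor replicate 4 stood apart for Xist at 39 (1283 to 2053) and Eif2s3y at 139 (7 to 9). KO day 15 replicate 1 stood apart for Sec11c at 1519 (1257 to 1290). WT day 15 replicate 3 stood apart for Nepn at 10 (others 8). WT day 15 replicate 2 stood apart for Ddx58 at 107 (82 to 100). KO tumor replicate 6 stood apart for Il1rn at 240 (380 to 493). WT tumor replicate 4 stood apart for Krt5 at 46 (16 to 21). KO day 15 replicate 2 stood apart for Reg1 at 10 (others 9).

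Values of 7 to 10 against 6 to 9 are whole-number steps near background.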

How the results depend on the processing

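Of 38 alternatives, 20 left out 1 array each. The interaction stayed at 0 genes in 36, with 2 without KO tumor replicates 1 and 2 and 11 without all 6 arrays that stood apart, a set chosen after seeing the data. Of 3172 values of named genes, 3165 kept their sign. The others were Bcat2, at 0.020 without day 15 replicate 4 of both genotypes, 0.036 without the 6 arrays and -0.24 to 0.0067 without single arrays, and Cd177, at -0.060 to 0.47 without single arrays. With the mean of all probe sets of a gene, several interactions were smaller, at -0.77 for Kif11, -0.35 for Ddx58, -0.36 for Axin2 and -0.51 for Cad. Cmpk2 was then at -0.98, against -1.62 in the reported fit, Cd151 at 0.24 and Lmbr1 at 0.19. Medians turned for squamous genes (-0.075 without KO tumor replicates 1 and 2, -0.057 without the 6), the IL-1 family (0.030 without the 6) and IL-17-induced genes (-0.37 to 0.13 without single arrays, the highest without KO day 15 replicate 4).

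Counts moved more, and the cause was not tested. Against 10 genes at day 15, 5 passed with a pseudocount of 16, 38 with all 36 arrays, 5 with every probe set, 1 with the title number as a term and 34 without the 6 arrays. Against 4 in tumors, 9 passed with all 36 arrays, 12 with array weights, 1 with the title number, 9 without day 15 replicate 4 of both genotypes, 1 without KO tumor replicates 1 and 2 and 51 without the 6. With the replicate block over the 4 groups, 4 genes passed at day 15 and 1 in tumors, and with the replicate block at day 15 only, 36 and 8, while the interaction stayed at 0 under both. The KO change had 3095 genes with array weights, 623 with the smooth muscle level as a covariate and 2917 without the 6. The WT change had 1689 with the title number, 1316 with the covariate and 4531 without the 6. Interaction genes at an unadjusted p under 0.05, 786 in the reported fit, were 508 above a mean of 16, 1320 with every probe set, 1403 with array weights, 1277 with the day 15 block and 2187 without the 6. Replication and mitosis genes that rose in KO, 2 in the reported fit, were 1 without normalization, with probe set means or with the title number, 5 above a mean of 16 or with array weights, 7 with all 36 arrays, 8 and 10 with the replicate block over 4 groups and at day 15, and 0 with the covariate, without KO tumor replicates 1 and 2 or without the 6.

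Without single arrays, the KO change ran from 854 to 2184 genes, the WT change from 1771 to 3363, day 15 from 1 to 21, tumors from 1 to 8, unadjusted interaction genes from 590 to 1467 and replication genes that rose in KO from 1 to 6. Genes near background have compressed differences, and 4 arrays a group at day 15 limit the precision.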

Other observations

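Mean list levels in all 8 groups of the series, including untreated colon and day 7, which no comparison here uses, place the day 15 values. Replication and mitosis genes had a mean log2 level of 7.05 in untreated WT and 7.35 in untreated KO, 5.45 and 5.74 at day 7, 6.46 and 7.33 at day 15, and 7.69 and 7.76 in tumors. Type I interferon-stimulated genes were at 5.79 in untreated WT and 7.95 in untreated KO, a wider gap than at day 15. These genes were at 6.17 and 6.06 at day 7, at 6.33 and 7.66 at day 15, and at 6.22 and 6.62 in tumors. Interferon-gamma and antigen presentation genes were at 6.18 in untreated WT and 9.36 in untreated KO, again a wider gap than at day 15. They were at 6.82 and 6.25 at day 7, at 7.61 and 8.57 at day 15, and at 7.53 and 7.61 in tumors. All 36 arrays were normalized together for these levels, which were not tested.

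Of the 12 genes that differed between KO and WT at day 15 or in tumors, 5 lay on chromosome 7 (41.7%), where 7.71% of all genes lie. The 6 pancreatic genes named in the report were all above 100 on 0 arrays outside the tumor groups, and 4 of the 6 were above 100 on WT day 15 replicate 1.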
